A study of Mus musculus with 4 samples.

Results

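The genes described here are 10 Toll-like receptor genes of the mouse, Tlr1, Tlr2, Tlr3, Tlr4, Tlr6, Tlr7, Tlr8, Tlr9, Tlr12 and Tlr13, chosen by symbol out of 31053 genes in the deposited table. All 10 were found, and together they held 26983 UMIs (unique molecular identifiers, one per captured transcript). The deposited data also hold Tlr5 and Tlr11, 2 other Toll-like receptor genes that were not among those chosen. The data are droplet single-cell RNA-seq of CD45-enriched cells, that is leukocytes, sorted from orthotopic pancreatic tumours that B6KPC3 cells had formed in C57BL/6 mice. In the vehicle group, mice with tumours aged 7 days received only the carrier, 1% carboxymethyl cellulose in water, by injection into the peritoneum for 7 days. In the AT38 group, mice with the same tumours received 30 mg/kg per day of AT38, a compound known here by its code name, in that carrier over the same 7 days. Each group had 2 libraries and each library pooled 4 mice, so the p-values measure how far pools differ and say nothing of single animals. The mice's age and sex are not given in the sources used here.

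Toll-like receptors are membrane proteins of innate immune cells that bind parts of microbes and products of dying cells. Tlr2 pairs with Tlr1 or Tlr6 at the cell surface to bind lipopeptides, and Tlr4 binds lipopolysaccharide with its partners Ly96 (MD-2) and Cd14. Tlr3, Tlr7, Tlr8, Tlr9 and Tlr13 sit in endosomes and bind nucleic acids, and Tlr12, which mice have and humans lack, binds profilin of protozoan parasites and also depends on the endosomal chaperone Unc93b1. Most of the receptors signal through Myd88, Tlr3 signals through Ticam1 (TRIF), and both routes switch on NF-kB and interferon regulatory factors.

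Cell classes were rebuilt by clustering and named from marker genes, with the 10 receptor genes kept out of the genes used to cluster, so differences between classes are described without a test. Of 18001 barcodes, 14242 cells were kept. They included 4489 neutrophils, 1559 macrophage-like cells (C1qa, C1qb, C1qc, Apoe), 559 monocyte-like cells (Chil3, Vcan, Fn1), 240 cDC1-like cells (Xcr1, Naaa), 760 cDC2-like cells (Cd209a, Clec10a, Mgl2), 523 mature DC-like cells (Ccr7, Fscn1, Ccl22), 1230 B cells and 2805 T cells. Monocyte-like and macrophage-like cells together are called mononuclear phagocytes, and the 3 dendritic classes together dendritic cells. No cluster was plasmacytoid with doublets removed. A pair of libraries shared at most 8 cell barcodes. The deposited library totals ran from 24294215 to 34386076 UMIs. Levels are given as CPM, the UMIs of a gene per 1000000 UMIs of the same class in the same library. Levels of different genes are not compared.

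Promoter sequences are shown for the 3 receptor genes whose 250 bases before the RefSeq start site lay wholly outside the GENCODE gene model, among them Tlr12, the receptor on which the phagocyte result turns. RefSeq (GRCm38.p6) had entries for 8 of the 10 genes, 10 entries in all, and none for Tlr4 and Tlr7. The windows are chr4:128618620-128618869 on the minus strand for Tlr12, chr9:106222348-106222597 on the plus strand for Tlr9 and chrX:167264330-167264579 on the minus strand for Tlr8. They are written 5′ to 3′ toward the start site, and capitals mark matches to the motifs searched on both strands.
Tlr12: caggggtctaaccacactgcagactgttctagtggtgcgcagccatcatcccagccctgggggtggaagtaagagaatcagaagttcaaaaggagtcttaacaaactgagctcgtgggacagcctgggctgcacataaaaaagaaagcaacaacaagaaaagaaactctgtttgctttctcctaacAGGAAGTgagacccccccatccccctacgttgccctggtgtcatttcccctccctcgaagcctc
Tlr9: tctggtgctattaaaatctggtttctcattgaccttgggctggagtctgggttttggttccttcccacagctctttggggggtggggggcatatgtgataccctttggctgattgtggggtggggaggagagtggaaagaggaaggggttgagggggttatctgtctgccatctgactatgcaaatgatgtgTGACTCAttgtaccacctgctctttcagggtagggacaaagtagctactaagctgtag
Tlr8: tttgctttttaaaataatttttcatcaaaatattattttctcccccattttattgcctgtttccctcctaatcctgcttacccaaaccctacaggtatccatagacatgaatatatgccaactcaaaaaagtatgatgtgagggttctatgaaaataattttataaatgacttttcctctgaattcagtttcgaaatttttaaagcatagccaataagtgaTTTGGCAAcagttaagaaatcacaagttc
In these windows the capitals mark the ETS core AGGAAGT in Tlr12, the AP-1 site TGANTCA in Tlr9 and, on the opposite strand, the C/EBP site TTGCNNAA in Tlr8. Of 32851 mouse promoter windows of the same length, 7.69% held the ETS core, 6.75% the AP-1 site and 9.56% the C/EBP site. The ISRE core was in 2.98% and the NF-kB site in 0.36% of the windows. Among the receptor genes the ISRE core was found only for Tlr6 and the NF-kB site only for Tlr3, in windows that overlapped the gene model. A match describes these letters and is not a site of binding.

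Of the receptors of the cell surface, Tlr4 and Tlr6 were highest in neutrophils and Tlr2 in monocyte-like cells and neutrophils (plot of levels by class and library). Tlr2 lies at chr3:83836272-83841767 (GRCm38, GENCODE M21). Its level was 553 ± 66.2 CPM in monocyte-like cells (SD over all 4 libraries, as for the other class means), 529 ± 68.1 in neutrophils, 219 ± 26.3 in macrophage-like cells and 88.4 ± 12.2 in cDC2-like cells. The ranges of the leading pair overlapped, and neutrophils lay apart from macrophage-like cells. The cDC2-like class was mixed. In its cluster 12, led by Plet1, Mgl2 and Mmp12, mean Tlr2 was 36.9 CPM with vehicle and 37.3 with AT38. In its cluster 14, led by Cd209a, H2-Aa and Clec10a, the means were 157 and 154 CPM. In T cells, used as a rough guide to stray RNA, which was not itself measured, Tlr2 ranged from 6.89 to 15.3 CPM. The B cell range, from 5.05 to 14.5 CPM, overlapped it.

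Tlr4 (chr4:66827584-66930284) was highest in neutrophils, at 95.0 ± 13.1 CPM, a range apart from that of monocyte-like cells at 36.4 ± 14.5. Macrophage-like cells followed at 30.96 ± 4.49, within the range of the monocyte-like cells. In dendritic cells the 4 libraries held only 1.41 to 3.01 CPM of Tlr4. Tlr6 (chr5:64952031-64960097) was also highest in neutrophils, at 51.8 ± 8.09 CPM, and macrophage-like cells, at 9.53 ± 2.05, did not reach into that range. Tlr1 (chr5:64924679-64933563), the other partner of Tlr2, was highest elsewhere. It stood at 24.4 ± 6.73 CPM in macrophage-like cells, 23.4 ± 5.02 in B cells and 20.6 ± 5.52 in monocyte-like cells, with overlapping ranges. Neutrophils held 2.15 to 3.36 CPM, below the T cell range of 3.585 to 6.356 CPM. Tlr1 and Tlr6 are 18467 bases apart and were the only pair of the 45 whose annotated transcripts shared 31-base stretches. They shared 607. Of these, 4 lay in the last 500 bases of both, the end that this 3′ method reads. Summed over both directions, 39 from the last 500 bases of 1 gene were found anywhere in the other. The counts of both genes are therefore uncertain there.

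**Figure D1:**
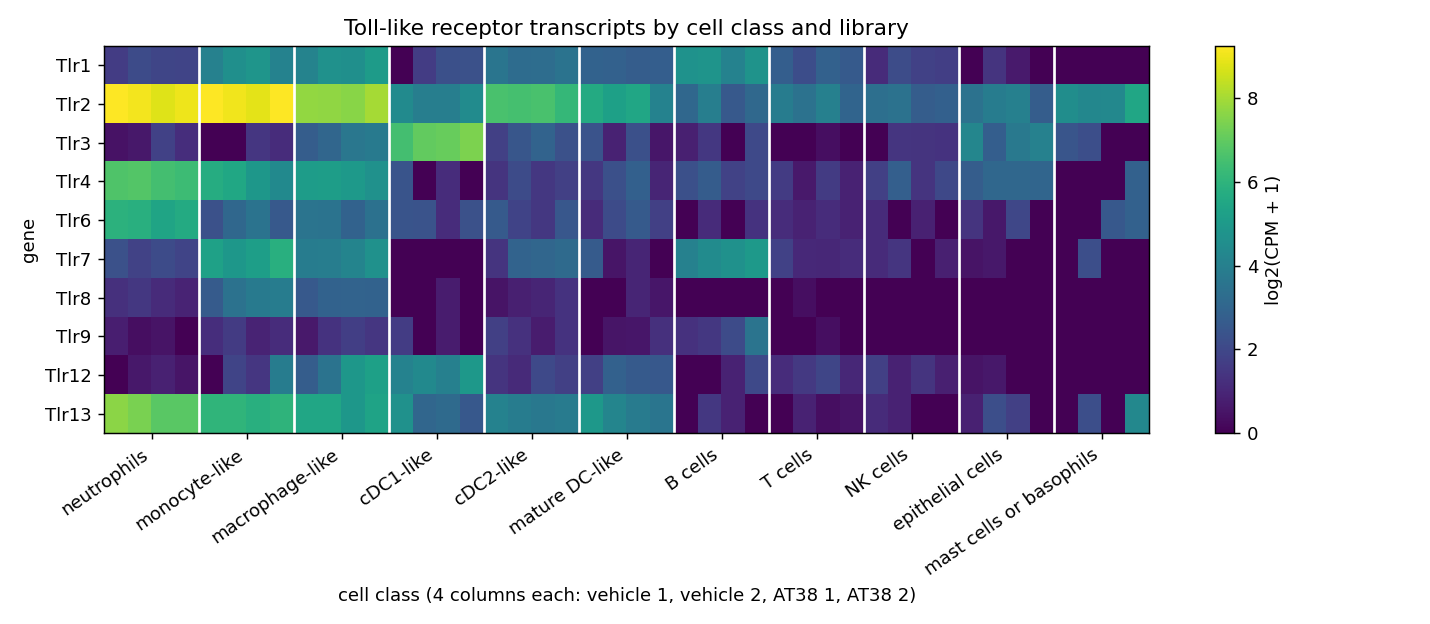
Level of the 10 receptor genes (rows) in 11 cell classes (blocks of 4 columns, 1 per library), as log2(CPM + 1) on the colour scale. Tlr2 is brightest in neutrophils and monocyte-like cells, Tlr3 in cDC1-like cells, and Tlr12 is brighter in the AT38 than in the vehicle columns of macrophage-like cells.

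Among the receptors of endosomes, Tlr3, the sensor of double-stranded RNA, was a gene of cDC1-like cells. It lies at chr8:45395665-45411080 and its level there was 132 ± 34.1 CPM, against 12.99 ± 5.31 in epithelial cells, the next class, a range apart. At least 1 UMI of Tlr3 was found in 67.4% and 63.5% of the cDC1-like cells of the vehicle libraries (1, then 2, here and below) and in 71.8% and 80.7% of those of AT38, against at most 0.137% of the T cells of a library. Median depth was 16577.5 (vehicle) and 16726.5 (AT38) UMIs per cDC1-like cell and 3878 and 4521.5 per T cell. With each cell thinned to 1000 UMIs, which left out 2 shallower cDC1-like cells, the cDC1 shares were 9.44%, 10.8%, 12.6% and 16.8%, and the highest T cell share was 0.0228%. Tlr3 overlaps an antisense gene, Gm45542, that the table counts separately. That gene held 3 UMIs in all kept cells, against 944 of Tlr3.

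Tlr12 (chr4:128615443-128618619) was highest in macrophage-like and cDC1-like cells. The means over 4 libraries were 20.6 ± 15.05 and 20.3 ± 6.73 CPM with overlapping ranges, and mature DC-like cells, at 4.66 ± 1.65, lay apart from the cDC1-like cells. These means join vehicle and AT38, which differed in macrophage-like cells. With vehicle the level was 8.12 ± 3.58 CPM in macrophage-like and 18.0 ± 2.70 in cDC1-like cells. With AT38 it was 33.1 ± 6.49 and 22.5 ± 10.4 (SD over the libraries of the group). T cells held 1.04 to 2.80 CPM, close to the 1.12 to 3.08 CPM of cDC2-like cells. Tlr13 (chrX:106143204-106160493), the sensor of bacterial ribosomal RNA, followed the order of Tlr4. It was at 150.3 ± 39.1 CPM in neutrophils, 63.1 ± 4.24 in monocyte-like cells and 39.1 ± 6.97 in macrophage-like cells, and these 3 ranges lay apart.

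Tlr7 and Tlr8, sensors of single-stranded RNA, are 40599 bases apart on chromosome X. Tlr7 stood at 39.6 ± 11.8 CPM in monocyte-like cells, 23.1 ± 6.22 in B cells and 17.4 ± 5.00 in macrophage-like cells, each range overlapping the next. No Tlr7 UMI was found in the 240 cDC1-like cells, which allows a share of up to 1.25% of cells with a UMI (3 counts, counting error only). Tlr8 was at 10.6 ± 3.86 CPM in monocyte-like and 6.22 ± 0.798 in macrophage-like cells, ranges that overlapped. It was not seen in 1230 B cells, which allows up to 0.244% of cells. Tlr9, the sensor of CpG DNA, was sparse: B cells held 16 UMIs in 16 cells, at 1.52, 1.81, 3.36 and 10.8 CPM, and mononuclear phagocytes 29 UMIs in 27 cells.

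Plasmacytoid dendritic cells are known for Tlr7 and Tlr9, and although they formed no cluster of their own here (a cluster of 29 cells led by Siglech, Ccr9 and Cox6a2 appeared without doublet removal), 34 cells carried Siglech and at least 3 of their 8 markers, 28 of them in the cDC2-like class. The vehicle libraries held 2 and 17 of these cells and the AT38 libraries 6 and 9. They carried 55 UMIs of Tlr7 in 18 cells, at 0 and 136 CPM with vehicle and 281 and 197 with AT38, and 6 UMIs of Tlr9 in 5 cells. Without them the cDC2-like class held 14 UMIs of Tlr7 in place of 67, and its level was 0.782 to 2.02 CPM in place of 1.60 to 8.24. These cells were too few in each library for a test of AT38.

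The genes most like each receptor were found as those with the highest Pearson r of log2(CPM + 1) over 44 sums (11 classes in 4 libraries) among 7947 genes. Sums of 1 library share its depth and those of 1 class its cell type, so r is a description. Igsf6 (r = 0.966) led for Tlr2, Treml4 (0.95) for Tlr13, Acod1 (0.923) for Tlr6, Cebpb (0.905) for Tlr4 and Tfec (0.903) for Tlr8. For Tlr3 these were Cadm1 (0.854), Sept3 (0.79) and Xcr1 (0.79), of which Cadm1 and Xcr1 had served to name the cDC1-like cells. Il10 (0.838) led for Tlr1, Cybb (0.837) for Tlr7 and Blnk (0.777) for Tlr9. The lowest leading value was that of Tlr12, with Dnase1l3 (0.758).

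In mononuclear phagocytes Tlr12 was higher with AT38. Its level was 4.61 and 8.88 CPM in vehicle 1 and 2 and 22.6 and 31.5 in AT38 1 and 2, and the groups did not overlap. The means were 6.75 ± 3.02 and 27.0 ± 6.29 CPM (SD, n = 2 each), and the log2 fold change was 1.92 ± 0.30 (SE, adjusted p = 0.0242, edgeR quasi-likelihood test, adjusted over all genes tested). In that class 9 of the 10 receptors passed the filter on low counts, 1 was called higher and 0 lower. Of all 10850 genes tested there, 1.06% were called, 0.654% as higher. Without AT38 2 the value was 1.65 and did not pass (adjusted p = 0.111). Over 14 alternatives it ran from 1.58 to 2.53, with adjusted p from 2.31e-14 to 0.111.

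Of 291 Tlr12 UMIs in phagocytes, 274 were in 146 macrophage-like cells. The level there was 5.59 and 10.7 CPM with vehicle and 28.5 and 37.7 with AT38, again without overlap. The log2 fold change was 1.95 ± 0.29 (SE, adjusted p = 0.0116), where 1.0% of 10603 genes were called. Without vehicle 1 it was 1.61 and did not pass (adjusted p = 0.132, the highest of 14 alternatives, the lowest being 1.14e-13). UMIs of Tlr12 were found in 3.29% and 7.06% of the macrophage-like cells of vehicle 1 and 2 and in 13.2% and 15.5% of those of AT38 1 and 2. Thinned to 1000 UMIs, which left out 119 shallower vehicle and 115 shallower AT38 cells, the shares were 0.286%, 0.709%, 2.32% and 3.54%. T cells gave at most 0.251% when thinned. The 5 cells richest in Tlr12 held 14.96% of its UMIs in macrophage-like cells, so the level did not rest on a few cells there. In monocyte-like cells it did: 17 UMIs came from 5 cells, 11 of them from 1 cell, and the gene was not tested.

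The macrophage-like class had 3 clusters, and Tlr12 was unevenly spread over them (plot of levels within clusters). In cluster 5, led by Mmp12, Arg1 and Ccl24, it stood at 6.91 and 12.9 CPM with vehicle and 38.5 and 46.7 with AT38, and the log2 fold change of 2.03 ± 0.27 (SE) passed (adjusted p = 0.0125, where 0.583% of 10124 genes were called). In cluster 18, led by Ccl8, Pf4 and Mrc1, only 2 UMIs were found in 327 cells. Cluster 11, with a median of 1001 UMIs per cell, held 10 UMIs, at 0, 4.92, 14.6 and 36.1 CPM, too few for the test. Cluster 5 was 41.8% and 40.9% of phagocytes with vehicle and 32.8% and 31.2% with AT38. With the clusters given the same weight in every library, the log2 ratio of means for Tlr12 was 2.17, against 2.00 unweighted. Marker sums moved beside Tlr12 in phagocytes, and their part in the result was not tested. The 8 macrophage markers summed to 6500 and 8081 CPM with vehicle and 10408 and 11158 with AT38, and the 8 cDC2 markers to 511 and 648 against 971 and 927. The 8 monocyte markers summed to 3969 and 4071 against 3267 and 3316 CPM. The 8 cDC1 markers, none at 0 and the markers of the other class that holds Tlr12, summed to 380 and 385 CPM with vehicle and 430 and 376 with AT38, so the groups overlapped. Within cluster 5 alone the macrophage markers summed to 6005 and 8454 CPM with vehicle and 11036 and 12517 with AT38. The monocyte markers there summed to 3328 and 3094 against 1818 and 1193 CPM, and their part in the result was not tested either.

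No other receptor passed in phagocytes, and Tlr9 was too sparse to test. Tlr3 stood at 4.61 and 5.66 CPM with vehicle and 9.53 and 10.1 with AT38, without overlap (log2 fold change 0.91 ± 0.28, adjusted p = 0.232). Tlr7 was at 18.0 and 17.5 against 21.2 and 32.8 CPM (0.58 ± 0.22, adjusted p = 0.398). Tlr4 pointed the other way, with 36.7 and 36.9 CPM in vehicle and 30.7 and 23.4 in AT38 (−0.42 ± 0.16, adjusted p = 0.372). In monocyte-like cells alone Tlr4 was at 51.6 and 45.1 against 28.9 and 19.98 CPM (−0.93 ± 0.27, adjusted p = 0.217). Tlr2, the partner receptor, was at 282 and 281 CPM with vehicle and 257 and 347 with AT38, so the vehicle values lay between those of AT38. Tlr1, Tlr6, Tlr8 and Tlr13 had log2 fold changes from −0.30 (Tlr6) to 0.39 (Tlr8). The groups did not overlap for 7 of the 9 receptors, and for 39.6% of all genes tested.

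**Figure D2:**
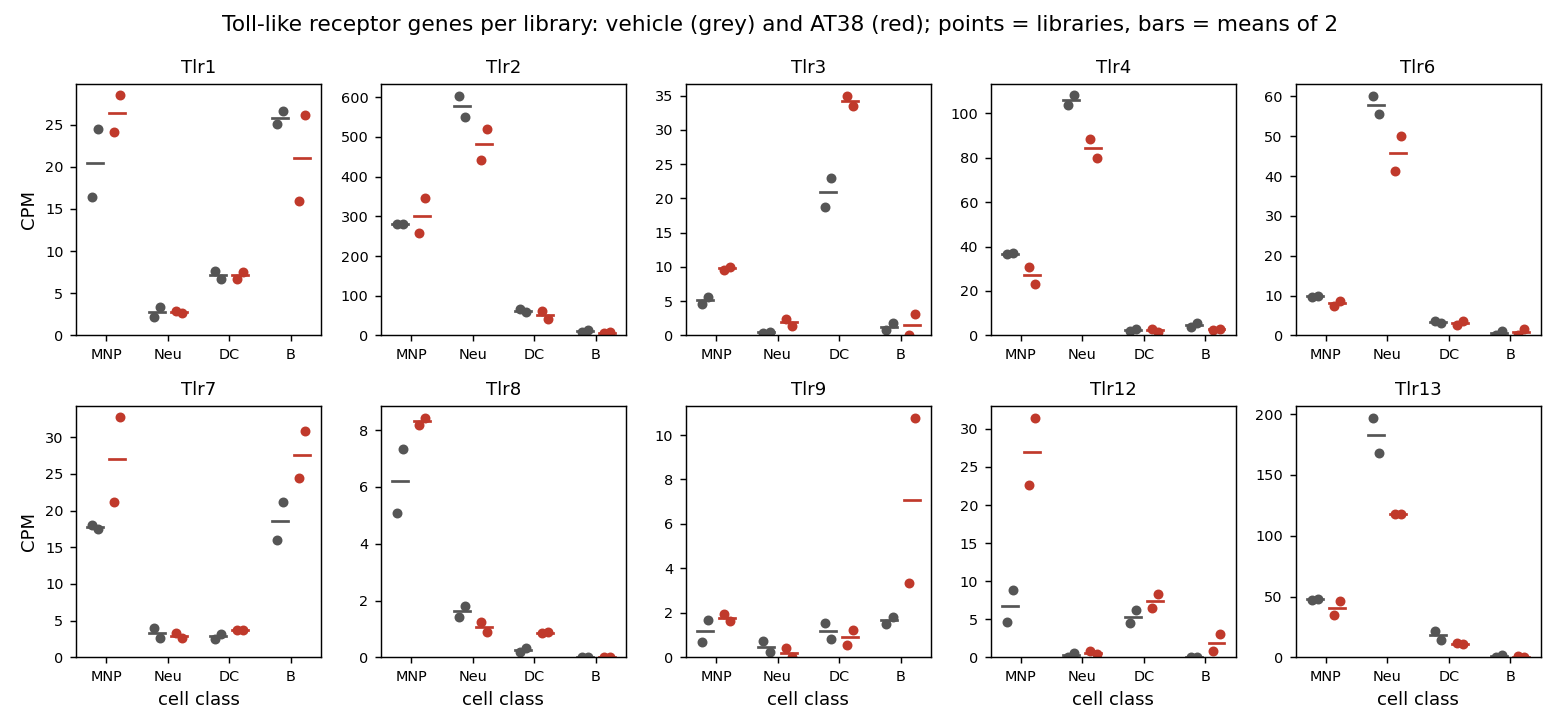
Level (CPM, linear axes from 0) of each receptor gene in mononuclear phagocytes (MNP), neutrophils (Neu), dendritic cells (DC) and B cells (B). Points are libraries and bars the means of 2, grey for vehicle and red for AT38. Tlr12 in phagocytes is higher in both AT38 libraries (22.6 and 31.5 CPM) than in both vehicle libraries (4.61 and 8.88 CPM), and Tlr13 in neutrophils is lower.

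In neutrophils 4 receptors were abundant enough to test (Tlr1, Tlr3, Tlr7, Tlr8, Tlr9 and Tlr12 were not), and 3 were called lower with AT38, Tlr13, Tlr2 and Tlr4. Of all 8419 genes tested in neutrophils 5.05% were called and 3.54% were called lower. Tlr13 stood at 197 and 168 CPM with vehicle and 118.0 in both AT38 libraries, and its log2 fold change was −0.74 ± 0.11 (SE, adjusted p = 0.000226). It was called with each of the 4 libraries left out. Tlr2 was at 604 and 551 CPM with vehicle and 441 and 521 with AT38 (−0.38 ± 0.09, adjusted p = 0.0179), groups that lay apart by less than the spread within either. Tlr4 was at 104 and 108 against 88.5 and 80.0 CPM (−0.45 ± 0.12, adjusted p = 0.0280). Tlr6, with 60.2 and 55.6 against 41.4 and 50.05 CPM, did not pass (−0.46 ± 0.15, adjusted p = 0.0892). All 4 had groups that did not overlap, as had 51.2% of the genes tested.

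Tlr2 and Tlr4 depended on single libraries and on scaling. Without vehicle 1 Tlr2 was −0.32 (adjusted p = 0.305) and Tlr4 −0.48 (adjusted p = 0.173), and without vehicle 2 they were −0.46 (adjusted p = 0.0867) and −0.42 (adjusted p = 0.175). Tlr2 was also lost without AT38 1 (−0.26, adjusted p = 0.219) and Tlr4 without AT38 2 (−0.38, adjusted p = 0.199) and with DESeq2 (−0.45, adjusted p = 0.175). Over 16 alternatives the adjusted p ran from 0.000961 to 0.942 for Tlr2 and from 0.0101 to 0.838 for Tlr4. TMM scaling shifted neutrophil values by −0.12 on the log2 scale. With library totals alone Tlr13 was still called (−0.62), while Tlr2 was −0.26 (adjusted p = 0.0998) and Tlr4 −0.33 (adjusted p = 0.104).

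The neutrophil clusters differed in these receptors and in their shares. Tlr2 stood at 147, 112, 139 and 136 CPM in cluster 1, which had Il1a and Mmp9 among its 10 leading genes. In cluster 0, which had Slc7a11 there, it was at 843, 780, 853 and 945. In cluster 4, which had Retnlg and Slpi, it was 1018, 946, 997 and 1190 CPM. S100a8 and Acod1 were among the leading genes of all of these clusters. Cluster 1, the low one, was 24.9% and 27.9% of neutrophils with vehicle and 44.5% and 42.5% with AT38. Within clusters the log2 fold changes of Tlr2 were 0.17, 0.11 and 0.15 in clusters 0, 1 and 4 and −0.09 in cluster 15, none of them called. Of all genes tested 2.07% were called in cluster 0, 0.306% in cluster 1, 1.91% in cluster 4 and 0.0% in cluster 15. With the clusters given the same weight in every library, the log2 ratio of means for Tlr2 was 0.13 in place of −0.26.

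For Tlr13 the within-cluster log2 fold changes were −0.44 in cluster 0, −0.62 in cluster 1, −0.07 in cluster 4 and −0.25 in cluster 15, none of them called (adjusted p = 0.172 to 0.936), and its log2 ratio with the same cluster weights was −0.37 in place of −0.63. In cluster 0 it was at 266 and 225 CPM with vehicle and 172 and 182 with AT38, without overlap. Tlr4 had −0.35, −0.38, 0.18 and −0.87 in the same order of clusters, and a weighted ratio of −0.22 in place of −0.33. For Tlr6 the weighted ratio was −0.13 in place of −0.34. The 9 neutrophil markers moved the same way in the whole class, summing to 71909 and 76427 CPM with vehicle and 63988 and 64017 with AT38.

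**Figure D3:**
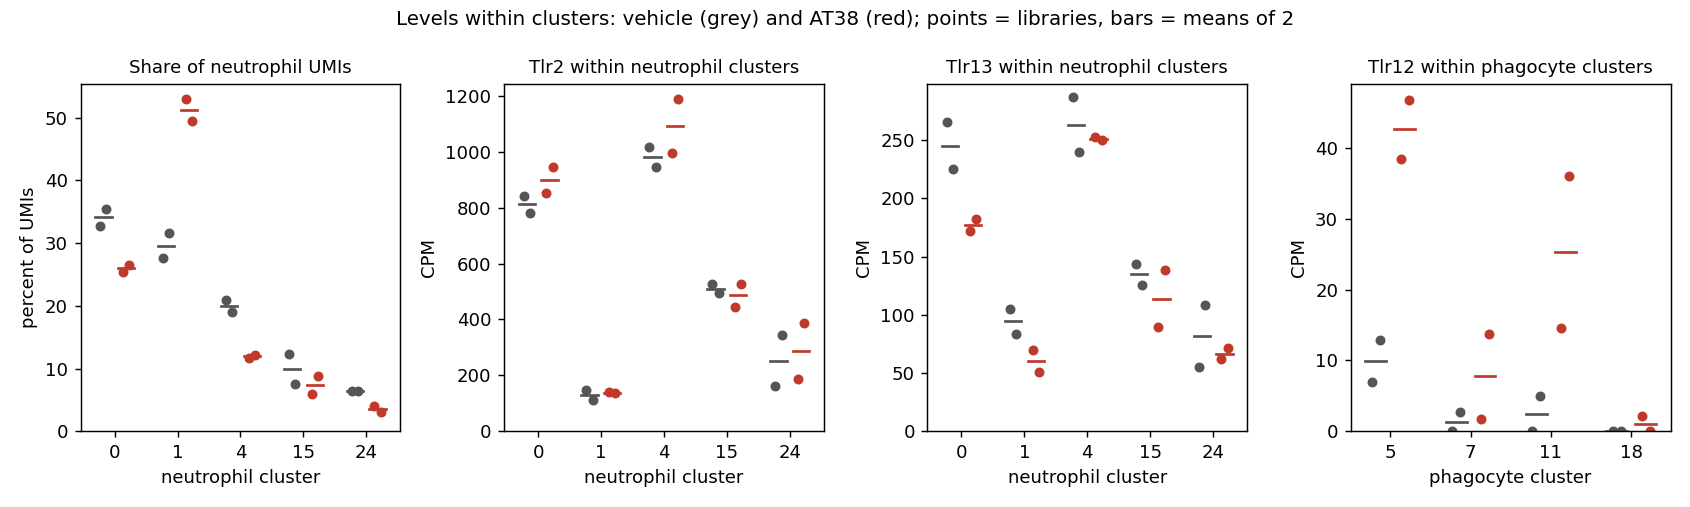
Share of neutrophil UMIs by cluster (percent), and levels (CPM) of Tlr2 and Tlr13 within neutrophil clusters and of Tlr12 within phagocyte clusters. Points are libraries and bars the means of 2, grey for vehicle and red for AT38. Cluster 1 takes a larger share with AT38 and has the lowest Tlr2 of the neutrophil clusters, and Tlr12 is highest in phagocyte cluster 5.

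In dendritic cells no receptor was called. Of 8 tested (Tlr8 and Tlr9 were too sparse), 0 passed (edgeR) and 2, Tlr3 and Tlr13, had an unadjusted p under 0.05. Of all 11128 genes 0.027% were called and 6.25% had such a p. Tlr3 was at 18.8 and 23.0 CPM with vehicle and 35.02 and 33.5 with AT38 (log2 fold change 0.77 ± 0.15, adjusted p = 0.240). It passed without the filter on low counts (adjusted p = 0.000763), without AT38 1 (adjusted p = 0.00493) and without AT38 2 (adjusted p = 0.00739), with values from 0.76 to 0.77, and over 13 alternatives its adjusted p ran from 0.000763 to 0.999. Within cDC1-like cells, its main source, Tlr3 was at 89.1 and 130.1 against 135 and 173 CPM (0.52 ± 0.19, adjusted p = 0.458). Those cells were 16.0% and 11.9% of dendritic cells with vehicle and 19.8% and 15.4% with AT38, and the 8 cDC1 markers of the class summed to 1158 and 972 against 1360 and 1216 CPM.

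Tlr13 in dendritic cells was at 22.1 and 14.3 CPM with vehicle and 11.6 and 10.9 with AT38 (−0.62 ± 0.23, adjusted p = 0.758). The 9 neutrophil markers, whose cells hold the most Tlr13, moved with it there, at 1802 and 1514 against 1152 and 916 CPM, none of them at 0, and their part in the result was not tested. Tlr12 was at 4.505 and 6.17 against 6.46 and 8.28 CPM (0.51 ± 0.30, adjusted p = 0.870). In cDC1-like cells Tlr12 stood at 16.1 and 19.9 CPM with vehicle and 15.2 and 29.9 with AT38, groups that overlapped. Tlr2 was at 67.2 and 58.1 against 60.7 and 41.4 CPM and passed only without AT38 1 (−0.50, adjusted p = 0.0258). The groups did not overlap for 4 of the 8 receptors, and for 37.4% of all genes tested.

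Whether an effect of AT38 differed between phagocytes and dendritic cells was tested as an interaction within libraries. None of 9 receptors passed, and of 11593 genes 0.0345% did. Tlr12 was the only receptor with an unadjusted p under 0.05, with a difference of 1.46 ± 0.34 between the log2 fold changes (adjusted p = 0.227, edgeR), so a larger effect in phagocytes than in dendritic cells was not shown. It was called without the filter on low counts (1.45, adjusted p = 0.0175).

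In B cells Tlr1 and Tlr7 were the only receptors that passed the filter on low counts and were tested. Neither was called, while 0.0902% of 7759 genes were. Tlr7, whose product senses single-stranded RNA, was at 15.9 and 21.2 CPM with vehicle and 24.4 and 30.8 with AT38 (0.57 ± 0.31, adjusted p = 0.697). Its groups lay apart, those of Tlr1, at 25.0 and 26.6 against 16.0 and 26.2 CPM, did not (−0.33 ± 0.32, adjusted p = 0.884), and 36.9% of the genes tested had groups that lay apart. In the 5 finer classes of myeloid cells 28 tests of receptors were made and 1 passed, Tlr12 in macrophage-like cells, against 0.427% of 44229 tests of genes. The plot of log2 fold changes gives each tested value with its error.

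**Figure D4:**
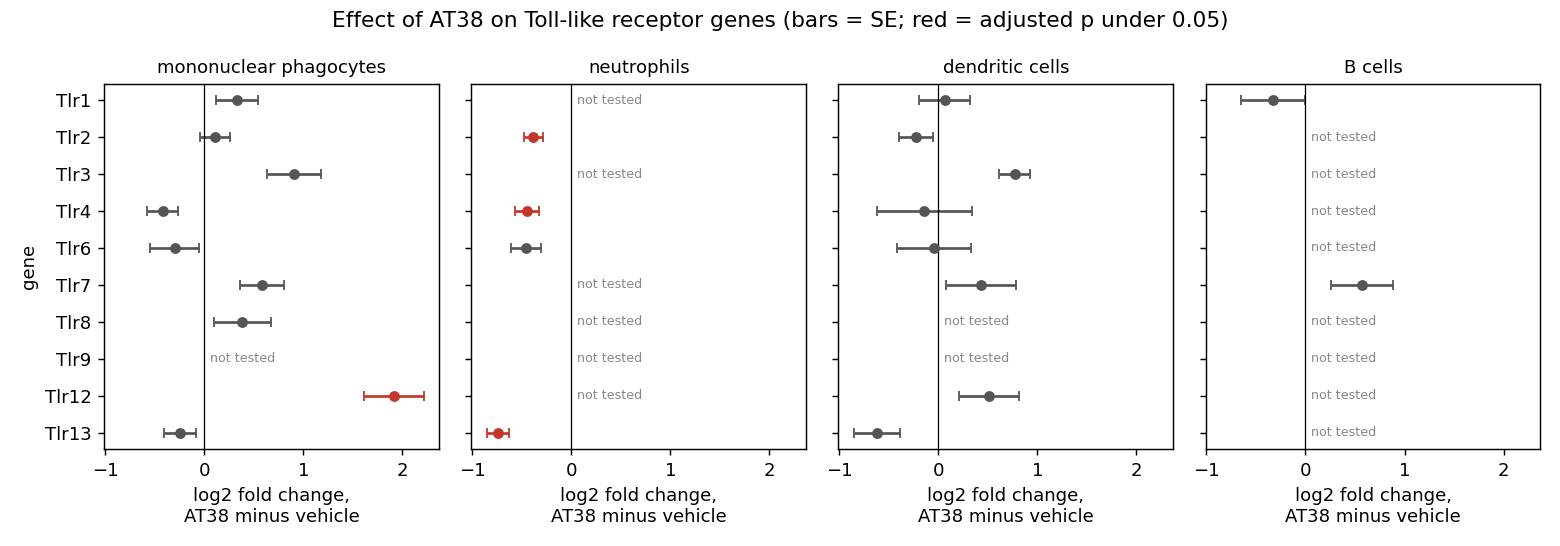
Log2 fold change (AT38 minus vehicle) of each tested receptor gene in 4 cell classes, with the SE derived from the edgeR F statistic as bars. Red points passed at an adjusted p under 0.05: Tlr12 in phagocytes (1.92), and Tlr2, Tlr4 and Tlr13 in neutrophils (−0.38, −0.45 and −0.74).

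Of 21 genes for partners and transport of the receptors 20 were tested in phagocytes, where 1 was called higher and 0 lower (1.06% of all genes were called), with a median log2 fold change of 0.12 against 0.00 for all genes. The gene called was Cd180, a receptor relative that pairs with Ly86, at 11.8 and 18.1 CPM with vehicle and 30.2 and 31.5 with AT38 (1.01 ± 0.21, adjusted p = 0.0489). Unc93b1, which carries receptors to the endosome, was at 390 and 415 against 466 and 478 CPM (0.24 ± 0.10, adjusted p = 0.453). Ly96, the partner of Tlr4, was at 17.5 and 20.4 against 18.7 and 20.4 CPM. In neutrophils 17 were tested and 2 called lower (3.54% of all genes were called lower), Cd14 and Ctsb, an endosomal protease. Cd14 was at 4025 and 3492 CPM with vehicle and 2515 and 2393 with AT38 (−0.73 ± 0.08, adjusted p = 1.07e-05), the same direction as Tlr4 in that class. The part of the neutrophil cluster shares in it was not tested. Cd14 was also lower, but not called by edgeR, in the other classes. It had −0.25 ± 0.11 in phagocytes (adjusted p = 0.470), −0.67 ± 0.14 in dendritic cells (adjusted p = 0.310) and −1.47 ± 0.45 in B cells (adjusted p = 0.279).

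None of the adaptor and kinase genes passed in phagocytes (22 tested), neutrophils (21), dendritic cells (22) or B cells (20), with medians of 0.04, −0.10, −0.04 and −0.04. Of all genes tested 1.06%, 5.05%, 0.027% and 0.0902% were called in these classes, so a count of 0 is near the background. Myd88, the shared adaptor, was at 74.3 and 81.0 against 93.0 and 94.4 CPM in phagocytes (0.27 ± 0.11, adjusted p = 0.452) and at 30.4 and 35.05 against 16.8 and 12.3 CPM in B cells (−1.06 ± 0.32, adjusted p = 0.259). Of 13 transcription factors 1 was called in phagocytes, Irf7, which drives type I interferon genes downstream of the endosomal receptors, at 51.2 and 44.4 against 84.8 and 86.3 CPM (0.85 ± 0.12, adjusted p = 0.00972). In dendritic cells Irf7 was at 17.0 and 20.8 against 36.4 and 33.1 CPM (0.93 ± 0.16, adjusted p = 0.168).

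Genes known to be induced by the receptors moved in both directions in phagocytes. Of 24 tested, 2 were called higher and 2 lower, with a median of 0.20 against 0.00 for all genes. Of all 10850 genes tested in phagocytes 0.654% were called higher and 0.406% lower. Ifnb1, which encodes interferon beta, was at 8.54 and 8.57 CPM with vehicle and 27.0 and 40.2 with AT38 (1.95 ± 0.24, adjusted p = 0.00436). Cxcl9, a chemokine for T cells, rose by 0.98 ± 0.13 (adjusted p = 0.00764). Il6, an inflammatory cytokine, was at 141 and 154 against 67.5 and 85.0 CPM (−0.96 ± 0.14, adjusted p = 0.00972), and Cxcl1, a chemokine for neutrophils, fell by 0.68 ± 0.13 (adjusted p = 0.0452). Tnf was at 476 and 445 against 423 and 516 CPM (0.03 ± 0.12, adjusted p = 0.977). Cxcl1 was among the 10 leading genes of phagocyte cluster 5, which held 66.8% and 62.8% of phagocyte UMIs with vehicle and 55.1% and 55.5% with AT38, and the part of this share in the values was not tested.

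In neutrophils, where 3.54% of all genes were called lower, 2 of 23 induced genes were called, both lower: Acod1, which makes itaconate (−0.37 ± 0.08, adjusted p = 0.00465), and Marcksl1 (−0.44 ± 0.09, adjusted p = 0.00393). Of 16 inhibitors of the pathway 3 were also called lower there. Tnfaip3 (A20) was at 1646 and 1602 CPM with vehicle and 1169 and 1191 with AT38 (−0.58 ± 0.08, adjusted p = 9.97e-05). Nfkbia and Nfkbiz had −0.38 ± 0.08 and −0.37 ± 0.08. In phagocytes 0 of 17 inhibitors were called, with a median of 0.00, while 1.06% of all genes were called. The share of neutrophil cluster 1 was higher with AT38, while these neutrophil genes and Tlr2 were lower. The part of this share in them was not tested.

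Other families of innate sensors were set beside the receptors. Of 17 in the table, 1 was called in phagocytes, where 1.06% of all genes were called. It was Zbp1, a sensor of Z-form nucleic acid, at 67.6 and 69.8 against 97.7 and 113.9 CPM (0.62 ± 0.12, adjusted p = 0.0452). In neutrophils 2 of 16 were called higher, Zbp1 (0.62 ± 0.13) and Naip2 (0.66 ± 0.17), and 3 lower. The lower ones were the C-type lectin receptors Clec4d (−0.55 ± 0.08) and Clec4e (−0.36 ± 0.08) and Mefv (−0.48 ± 0.11). Of all genes tested in neutrophils 1.51% were called higher and 3.54% lower. Clec4d was among the 10 leading genes of neutrophil clusters 0, 4 and 15 and not of cluster 1. Clec4e was among those of clusters 0 and 1 and not of clusters 4 and 15. The part of the cluster shares in these values was not tested. In dendritic cells 1 of 17 was called, where 0.027% of all genes were. Clec4d was called lower there, at 57.4 and 45.9 against 17.5 and 14.1 CPM (−1.64 ± 0.17, adjusted p = 0.0146), again with the lower neutrophil markers of that class.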

How the data were processed

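Droplet libraries (10x 3′ chemistry v3.1) were made from 4 pools of sorted cells. The deposited values are UMI counts per gene and barcode, which the authors made with Cell Ranger 3.1.0 on mm10, per the submitters' processing notes; the annotation release, the use of strand and any batch are not given in the sources used here. Cells with under 200 genes, under 500 UMIs or over 10% mitochondrial UMIs were left out (scanpy 1.11.5). Scrublet's automatic call marked 0.0278% of barcodes, so the highest scores were removed instead (0.8% per 1000 barcodes, 683 in all). Clusters (2000 variable genes without the receptors, 30 components, resolution 1) were named from marker lists, 2 of 27 staying unnamed.

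UMIs were summed per class and library and tested with edgeR 4.0.16 (quasi-likelihood, TMM, filterByExpr, two-sided), with Benjamini-Hochberg adjustment over all genes tested in the class and a threshold of 0.05. The SE given with an edgeR log2 fold change is the absolute change divided by the square root of its quasi-likelihood F statistic. An exact permutation test of 2 against 2 libraries cannot go below 0.333 and was not used. Alternatives were DESeq2 1.42.0, no filter, other cell filters and resolution, a replicate block and libraries left out. Chosen after seeing the data were library totals without TMM, single clusters, and leaving out the macrophage cluster of low UMIs or the plasmacytoid DC-like cells. All receptors were named, and from each pathway list up to 4 genes with the smallest p in phagocytes among those called, plus Unc93b1, Myd88, Irf7, Ifnb1, Tnf, Cd14 and Ly96; pathway genes named as called in neutrophils or dendritic cells were chosen after their values were seen. The receptors and lists were chosen with earlier results of these data known. The fits were tested on simulated data. Positions come from GENCODE M21 (GRCm38), promoters from RefSeq (GRCm38.p6). The limits given for receptors without a UMI in a class cover counting error only.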

Additional observations from a re-analysis of the deposited data

How the results depend on the processing

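Directions and calls held in 13 of 14 alternatives for Tlr12 in phagocytes and in 12 of 16 for Tlr13 in neutrophils, the 4 others being single clusters. Without the filter on low counts 393 genes were called in phagocytes (115 with it), 160 in dendritic cells (3) and 62 in B cells (7), and 1 receptor in dendritic cells (Tlr3) and 1 in the interaction (Tlr12). Without doublet removal 218 genes were called in phagocytes and 54 in B cells. DESeq2 called 202 genes in neutrophils (425 with edgeR) and 21 in dendritic cells. With library totals only, 20 genes were called in B cells and 1 receptor in neutrophils. Clusters 11 and 18 alone called 0 receptors, but only 1 and 5 were tested there, and Tlr12 in neither. Of all genes tested 0.376% were called in cluster 11 and 0.604% in cluster 18. Clusters 0, 1, 4 and 15 alone called 0 of the 4 receptors tested in each, where 2.07%, 0.306%, 1.91% and 0.0% of genes were called. The labels do not say what the replicate numbers mark (correlation of deviations of same-numbered libraries 0.151 in phagocytes, −0.026 in neutrophils, 0.147 in dendritic cells and 0.072 in B cells), and with the replicate block 396, 58 and 45 genes were called in phagocytes, dendritic cells and B cells and 2 receptor tests in the finer classes, Tlr12 in macrophage-like and Tlr3 in cDC1-like cells. With 1 library left out, the genes called ran from 36 to 59 in phagocytes, 78 to 410.0 in neutrophils, 2 to 594 in dendritic cells and 3 to 59 in B cells. The receptors called ran from 0 to 1, 1 to 2 and 0 to 2 in the first 3 classes, from 0 to 3 over the finer classes and from 0 to 1 in the interaction, where the receptor called was Tlr2 (0.81, adjusted p = 0.00783, without AT38 1). A group left with 1 library is then assumed to vary like the other. Signs turned for Tlr2 in neutrophils (0.17, 0.11 and 0.15 in clusters 0, 1 and 4), Tlr4 (0.18 in cluster 4) and Tlr6 (0.36 in cluster 15). With 1 library left out, Tlr2 ran from −0.16 to 0.34 and Tlr13 from −0.47 to 0.0020 in phagocytes. In dendritic cells Tlr1 ran from −0.049 to 0.18, Tlr4 from −0.78 to 0.24 and Tlr6 from −0.30 to 0.20, and in B cells Tlr1 from −0.62 to 0.039. The cause of these changes was not tested. Tlr9, and in neutrophils and B cells most receptors, had too few UMIs to test, and low expression and limited depth were not told apart.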
